A study of Homo sapiens with 6 samples.

Results

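Genes of the machinery that starts and drives mitosis, *CDK1*, *CCNB1*, *CCNB2*, *AURKA*, *AURKB*, *PLK1*, *PLK4*, *FOXM1*, *TPX2* and *MKI67*, were followed in TPC-1 cells with and without overexpression of *RRM2*. They were picked by gene symbol from the 58735 genes of the deposited table, and all 10 were found. TPC-1 cells are an established human line from a papillary thyroid carcinoma, and *RRM2* encodes the small subunit of ribonucleotide reductase, which makes deoxyribonucleotides. The groups were 3 wild strain TPC-1 libraries and 3 from TPC-1 infected with a lentivirus in which the CMV promoter drives *RRM2*, selected with puromycin (*RRM2*-OE-TPC-1). The wild strain carried no empty vector, so infection and selection cannot be told apart from *RRM2* itself in this comparison. The titles of all 3 treated libraries name *RRM2*, but the genotype field of the second and of the third names RRM3 and RRM4. The methods call the replicates biological, without saying whether they came from separate infections, so p-values measure the spread between these samples.

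Values are FPKM, fragments counted per gene after scaling to gene length and library depth. For *FOXM1* and *PLK1* the length used, 4899 and 4760 bases, was that of all annotated exons together. It need not be that of the transcripts expressed, so levels of different genes compare only roughly. Depth was 14317091 to 17084067 reads on genes per library, and each of the 10 genes was counted with 361 to 10098 reads in a library. *RRM2* itself was at 9.17, 9.05 and 8.52 FPKM in TPC-1 and at 50.4, 47.5 and 47.2 in *RRM2*-OE-TPC-1, so all 3 treated libraries bore out their titles. *RRM2*-OE-TPC-1 replicate 1 stood apart from its group: its counts differed from those of replicates 2 and 3 by a chi-square per gene of 5.30 and 6.00, against 1.82 between those 2 and 3.05 to 3.23 between TPC-1 libraries. It was also the shallowest library, with the lowest share of mitochondrial reads (4.29%, the others 4.79% to 5.89%). Of the thyroid lineage markers, *PAX8* had a mean of 69.3 FPKM in TPC-1 and of 58.5 with *RRM2* overexpressed and was called lower, *FOXE1* was called lower too (4.30 and 3.19 FPKM), and *HHEX* was called higher (2.47 and 4.61 FPKM). *NKX2-1* was at 0 in all libraries, and *TG*, *TSHR*, *SLC5A5* and *SLC26A4* were under the minimum of the test. The summed level of 8 thyroid markers was 74.1 to 78.0 FPKM in TPC-1 against 64.3 to 67.6 in *RRM2*-OE-TPC-1. That of 6 epithelial markers was 42.9 to 47.1 and 88.4 to 90.8, mostly *KRT18* (means of 41.2 and 85.2 FPKM). *KRT8* was called higher (2.56 and 3.48 FPKM), and *KRT7* was not called (1.18 and 1.01 FPKM). The epithelial markers *KRT19*, *EPCAM* and *CDH1* were under the minimum of the test. Markers of other cell types were low: 7 fibroblast genes summed to 2.79 to 3.19 FPKM and 2.79 to 2.96, 5 immune genes to 0.349 to 0.410 and 0.135 to 0.215, and 4 endothelial genes to 0.873 to 1.05 and 0.0667 to 0.115. *COL1A2*, *COL3A1*, *DCN*, *CD3E*, *LYZ* and *KDR* were at 0 in every library. *PECAM1*, most of the endothelial sum in TPC-1, was called lower (means of 0.924 and 0.0588 FPKM, log2 fold change -2.71). *COL1A1* was called lower too (0.816 and 0.501 FPKM), and *PDGFRB* was not called (2.12 and 2.37 FPKM). The thyroid, epithelial, immune and endothelial sums thus differed between the groups without overlap, and the part of those markers in the results was not tested.

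A cell enters mitosis when CDK1, bound to a B-type cyclin, becomes active. Polo-like kinase 1 and Aurora A help to switch it on, Aurora A with its activator TPX2 builds the spindle, Aurora B corrects faulty attachments of chromosomes to it, and PLK4 starts the duplication of centrioles. Most of these genes are transcribed late in the cell cycle, when MuvB proteins with B-MYB and then the transcription factor FOXM1 act at their promoters. MuvB reads a short element called the cell cycle genes homology region, commonly TTTGAA, which often lies near the start of transcription with CCAAT boxes, bound by NF-Y, upstream of it. In bulk RNA, more cells in G2 and mitosis and more RNA per such cell cannot be told apart. By flow cytometry the paper reported fewer G0/G1 cells and more S phase cells with *RRM2* overexpressed. Its text names no result for G2 and mitosis.

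Promoters from RefSeq on GRCh38.p14 were found for 7 of the 10 genes, in 11 windows, and those of *AURKA*, *FOXM1* and *TPX2* are not shown. The 130 bases before the annotated start were searched for TTTGAA and CCAAT on both strands, counting the base before the start as -1. Below are the 5 windows that show how these letters are spaced in the CDK1, cyclin B, polo and Ki-67 genes, each 5′ to 3′ on the strand of the gene, with matches in capitals (a CCAAT on the opposite strand reads ATTGG). Positions are chr10:60778348-60778477 (plus strand) for *CDK1*, chr5:69167020-69167149 (plus) for *CCNB1*, chr15:59105016-59105145 (plus) for *CCNB2*, chr16:23678759-23678888 (plus) for *PLK1* and chr10:128126424-128126553 (minus) for *MKI67*. For *CDK1* the window with more matches was taken, and its other window held none.
CDK1: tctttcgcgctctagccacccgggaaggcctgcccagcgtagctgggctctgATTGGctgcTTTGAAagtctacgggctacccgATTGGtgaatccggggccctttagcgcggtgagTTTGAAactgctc
CCNB1: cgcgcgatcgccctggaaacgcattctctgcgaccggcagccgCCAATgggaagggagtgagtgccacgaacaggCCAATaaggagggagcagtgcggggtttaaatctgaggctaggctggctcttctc
CCNB2: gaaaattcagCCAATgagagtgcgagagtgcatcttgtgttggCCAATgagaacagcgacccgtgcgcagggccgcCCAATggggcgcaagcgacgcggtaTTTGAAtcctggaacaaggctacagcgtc
PLK1: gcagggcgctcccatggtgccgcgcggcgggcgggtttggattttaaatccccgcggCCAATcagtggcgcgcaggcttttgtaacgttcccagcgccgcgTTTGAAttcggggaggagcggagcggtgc
MKI67: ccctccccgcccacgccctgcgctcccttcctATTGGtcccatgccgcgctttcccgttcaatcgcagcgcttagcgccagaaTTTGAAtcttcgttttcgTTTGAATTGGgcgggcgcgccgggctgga

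TTTGAA began at -29 in *CCNB2*, in *PLK1* and in *MKI67*, which held another at -47, and at -69 and -13 in *CDK1*. *CCNB1* had no TTTGAA in its window, but had CCAAT at -87 and -55. Other forms of the homology region were not searched for, so absence of that region from a window was not tested. In *CCNB2* CCAAT began at -120, -87 and -54, and in *PLK1* at -73. On the opposite strand it began at -78 and -46 in *CDK1* and at -98 and -24 in *MKI67*, where the last shares a base with TTTGAA. *AURKB* and *PLK4* held a CCAAT on the opposite strand in 1 window each, at -129 and -86, and no TTTGAA. Of all 35116 promoter windows of this length, 6.23% held TTTGAA, 21.5% held CCAAT and 1.49% held both, whereas 4 of the 11 windows of these genes held both. These matches describe letters only, and no binding was measured in these cells.

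**Figure D1:**
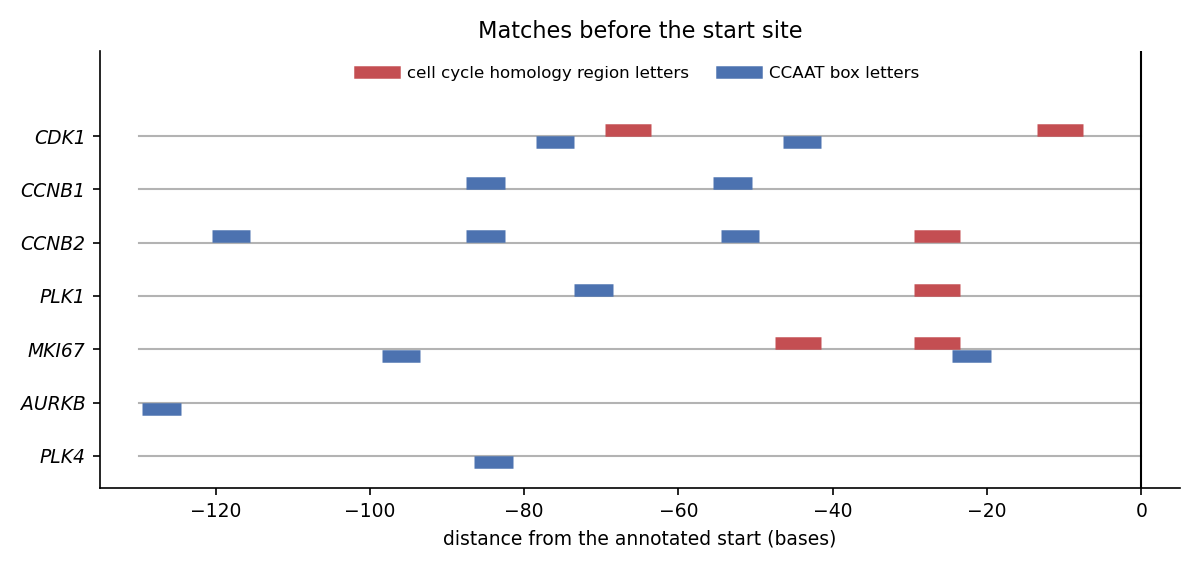
Positions of matches in the 130 bases before the annotated start, in bases from the start (x axis), for 7 genes (rows). Red marks TTTGAA, the only form of the cell cycle genes homology region searched for, and blue marks CCAAT. Marks lie above the line on the strand of the gene and below it on the opposite strand. Windows of the same gene are drawn on 1 row. The red blocks of *CCNB2* and *PLK1* and the nearer red block of *MKI67* begin at the same distance, -29.

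In *RRM2*-OE-TPC-1 each of the 10 genes was higher, and none doubled on average. By limma with Benjamini-Hochberg adjustment over the 13621 genes tested, 10 of 10 passed an adjusted p of 0.05 as higher, where 34.9% of all genes tested did so. The 3 values of each group did not overlap for any of the 10, which was the case in this direction for 37.3% of all genes. With an absolute log2 fold change of at least 1 asked for as well, 0 of the 10 passed, against 4.48% of all genes as higher and 6.97% as lower. Their median log2 fold change was 0.77, with a range of 0.34 to 0.95, whereas the median over all genes was 0.01 and the quartiles were -0.37 and 0.36. Without *RRM2*-OE-TPC-1 replicate 1, 10 of 10 still passed the adjusted p.

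**Figure D2:**
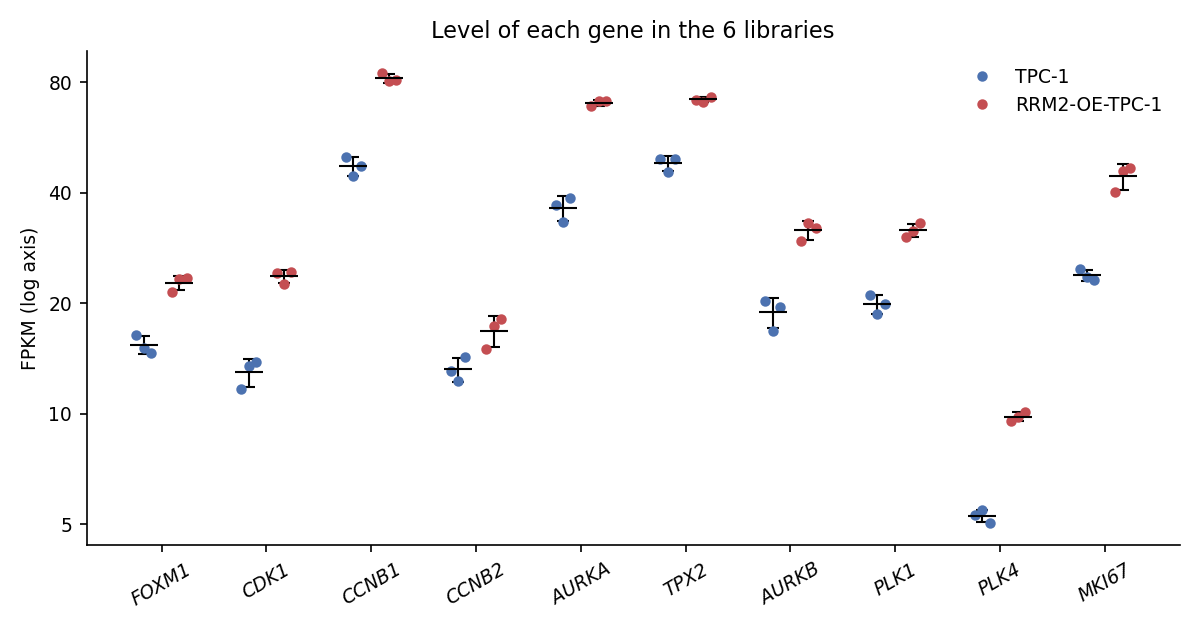
FPKM (y axis, log scale) of each gene in the 3 TPC-1 libraries (blue) and the 3 *RRM2*-OE-TPC-1 libraries (red), with mean and SD as black bars. Every red point lies above all blue points of its gene, most narrowly for *CCNB2*, where the gap is 0.678 FPKM.

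*FOXM1* (ENSG00000111206, chromosome 12 from 2857681 to 2877155 of GRCh38) encodes the factor that activates late cell cycle genes. It was at 16.4, 15.1 and 14.7 FPKM in TPC-1 and at 21.6, 23.3 and 23.4 in *RRM2*-OE-TPC-1. The treated libraries were all higher, by at least 5.16 FPKM. Its log2 fold change was 0.56 (SE, the standard error, 0.0535; adjusted p = 3.65e-05), the second smallest of the 10. Exons of *ITFG2* on the opposite strand cover 15.9% of its exon bases, at 2.74 and 3.27 FPKM in the 2 groups, and the sources used here do not say that counting used strand.

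*CDK1* (ENSG00000170312, chromosome 10 from 60778331 to 60794852), the kinase itself, was at 11.7, 13.5 and 13.8 FPKM in TPC-1 and at 24.2, 22.6 and 24.4 in *RRM2*-OE-TPC-1. The lowest treated library was 8.78 FPKM above the highest wild strain library. The mean rose 1.82-fold (log2 fold change 0.86, SE 0.0666, adjusted p = 1.10e-05 from limma). The B-type cyclins bind CDK1 and give it activity and location. *CCNB1* (ENSG00000134057, chromosome 5 from 69167010 to 69178245) was at 50.2, 44.5 and 47.3 FPKM in TPC-1 and at 84.8, 80.6 and 81.0 in *RRM2*-OE-TPC-1. Its treated and wild strain libraries were far apart, with a log2 fold change of 0.79 (SE 0.0478, adjusted p = 2.86e-06). *CCNB2* (ENSG00000157456, chromosome 15 from 59105078 to 59125045) was at 13.1, 12.3 and 14.3 FPKM in TPC-1 and at 15.0, 17.3 and 18.2 in *RRM2*-OE-TPC-1. Treated replicate 1 lay close to the wild strain libraries, and the rise was the smallest of the 10, at 0.34 (95% interval 0.16 to 0.53, adjusted p = 0.00581). Without that library it was 0.42 (adjusted p = 0.00128 from limma). *CCNB2* alone had an interval that reached into the interquartile range of all genes.

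*AURKA* (ENSG00000087586, chromosome 20 from 56369389 to 56392337), which encodes the spindle pole kinase Aurora A, showed the largest change of the 10. Its levels were 37.1, 33.2 and 38.8 FPKM in TPC-1 and 68.8, 71.1 and 71.4 in *RRM2*-OE-TPC-1. The groups were 30.1 FPKM apart at their nearest, and the mean rose 1.94-fold (log2 fold change 0.95, SE 0.0557, adjusted p = 2.45e-06). It passed a log2 fold change of 1 only when TPC-1 replicate 3 was left out, at 1.002. Its pseudogene *AURKAP1* was at no more than 0.207 FPKM in any library. Its activator *TPX2* (ENSG00000088325, chromosome 20 from 31739271 to 31801805) was at 49.6, 45.5 and 49.5 FPKM in TPC-1 and at 71.9, 70.7 and 73.2 in *RRM2*-OE-TPC-1. *TPX2* rose by 0.58 on the log2 scale, with the smallest standard error of the 10, 0.0414 (adjusted p = 7.29e-06). *AURKB* (ENSG00000178999, chromosome 17 from 8204733 to 8210600), the kinase of the chromosomal passenger complex, was at 20.3, 16.9 and 19.6 FPKM in TPC-1 and at 29.5, 33.1 and 32.2 in *RRM2*-OE-TPC-1. It rose by 0.74 on the log2 scale (SE 0.0743, adjusted p = 4.84e-05 from limma), with no overlap between the groups.

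*PLK1* (ENSG00000166851, chromosome 16 from 23677656 to 23690367) encodes the polo-like kinase of mitotic entry and exit. It was at 21.1, 18.8 and 19.9 FPKM in TPC-1 and at 30.4, 31.6 and 33.0 in *RRM2*-OE-TPC-1. The groups were 9.36 FPKM apart, and the log2 fold change was 0.67 (SE 0.0517, adjusted p = 1.11e-05). Exons on the opposite strand, of *AC008870.3* over 11.6% of its exon bases and of *ERN2* over 0.882%, belong to genes under 0.2 FPKM on average. *PLK4* (ENSG00000142731, chromosome 4 from 127880861 to 127899195), the centriole kinase, had the lowest level of the 10, at 5.29, 5.48 and 5.05 FPKM in TPC-1 and at 9.57, 9.79 and 10.1 in *RRM2*-OE-TPC-1. The groups were 4.09 FPKM apart, and the mean rose 1.86-fold (log2 fold change 0.88, SE 0.0518, adjusted p = 2.51e-06). *MKI67* (ENSG00000148773, chromosome 10 from 128096659 to 128126385), which encodes the proliferation antigen Ki-67 on the surface of mitotic chromosomes, was at 24.8, 23.6 and 23.2 FPKM in TPC-1 and at 40.3, 46.0 and 46.8 in *RRM2*-OE-TPC-1. Treated replicate 1 was the lowest of its group, and without it the log2 fold change went from 0.89 to 0.96. The same library was the lowest of the treated group for 7 of the 10 genes, and replicate 3 the highest for 8. The summed level of the 10 genes was 249.5, 229.0 and 246.1 FPKM in TPC-1 against 396.0, 406.2 and 413.7 in *RRM2*-OE-TPC-1.

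**Figure D3:**
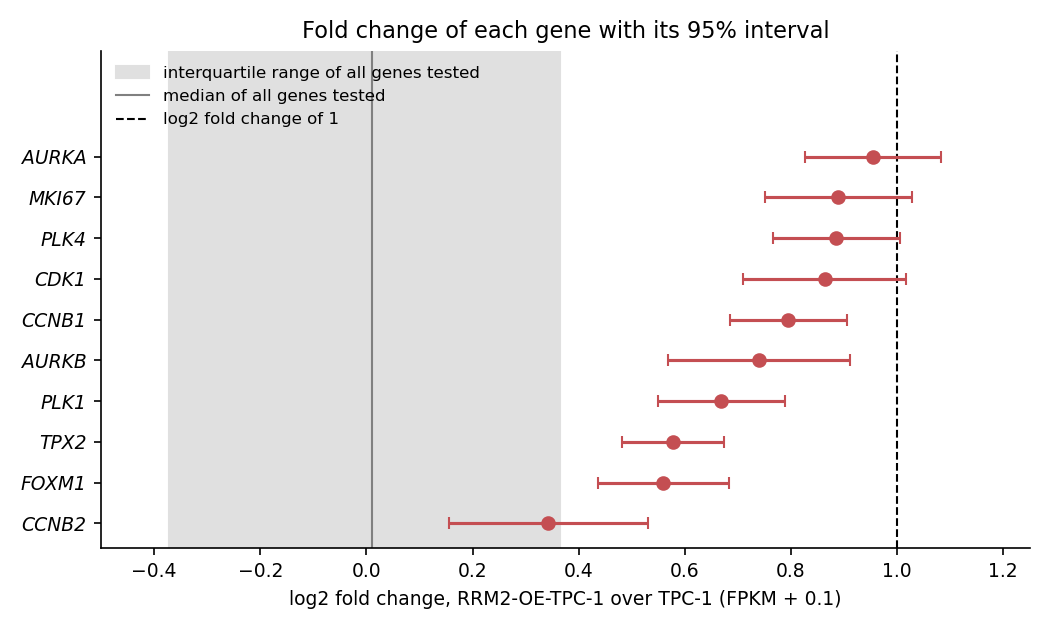
Log2 fold change of FPKM + 0.1, *RRM2*-OE-TPC-1 over TPC-1 (x axis), of each gene (points) with its 95% interval from limma. The grey band is the interquartile range of all genes tested and the dashed line a log2 fold change of 1. All 10 points lie below that line, from *CCNB2* at 0.34 to *AURKA* at 0.95. The intervals of *AURKA*, *MKI67*, *CDK1* and *PLK4* reach past it, to 1.08 for *AURKA*.

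The order of levels in FPKM, which rests on the gene lengths used, was largely kept. In TPC-1 *TPX2* and *CCNB1* were highest and had overlapping ranges, followed by *AURKA*, *MKI67*, *PLK1* with *AURKB*, *FOXM1*, *CCNB2* with *CDK1*, and *PLK4*, where genes joined by "with" overlapped. In *RRM2*-OE-TPC-1 *CCNB1* was alone at the top, *TPX2* with *AURKA* followed, and then *MKI67*, *PLK1* with *AURKB*, *CDK1* with *FOXM1*, *CCNB2* and *PLK4*. So *CDK1*, level with *CCNB2* in the wild strain, was above it in every treated library.

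To compare partners directly, 5 ratios of FPKM were formed within each library, which scaling of the library does not touch. Their size rests on the gene lengths used, but these lengths are the same in both groups. The ratio of *CCNB1* to *CCNB2* was 3.85, 3.62 and 3.30 in TPC-1 and 5.65, 4.66 and 4.46 in *RRM2*-OE-TPC-1. The ratio of *TPX2* to *AURKA* was 1.34, 1.37 and 1.28 and then 1.04, 0.994 and 1.03. The ratio of *AURKA* to *AURKB* was 1.82, 1.97 and 1.98 and then 2.33, 2.15 and 2.22. These 3 ratios differed without overlap, toward *CCNB1* and toward *AURKA*. That of *PLK1* to *PLK4* was lower in *RRM2*-OE-TPC-1, at 3.78 ± 0.310 and then 3.22 ± 0.0434 (SD, n = 3 each), again without overlap. Its log2 difference of -0.23 became -0.14 with a pseudocount of 1 (exact permutation test, p = 0.2). For these 4 ratios as measured, the exact two-sided permutation test gave p = 0.1, the smallest that 3 against 3 allows, and 0.125 adjusted over the 5, so none could pass 0.05. The ratio of *CCNB1* to *CDK1*, 3.67 ± 0.541 and 3.47 ± 0.127, overlapped between the groups (exact permutation test, p = 0.9).

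**Figure D4:**
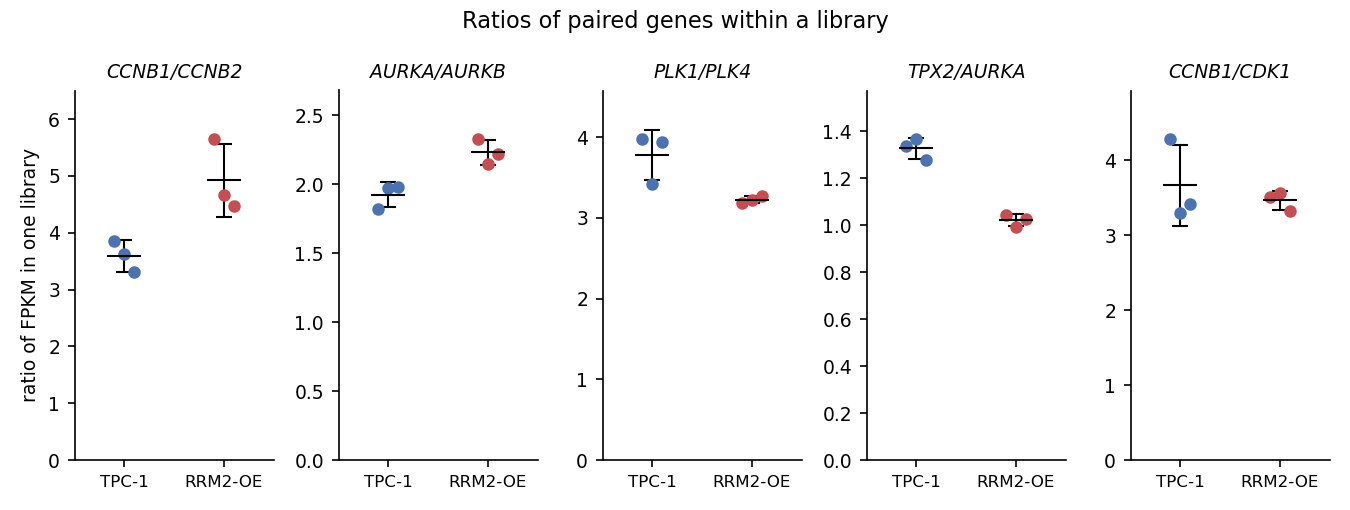
Ratio of the FPKM of 2 genes in the same library (y axis, from 0) in TPC-1 (blue) and *RRM2*-OE-TPC-1 (red), with mean and SD as black bars. The groups are separate in the first 4 panels and overlap for *CCNB1* to *CDK1*.

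Genes that act with the 10 were read from 6 lists by role. Of 15 tested genes that control CDK1, 9 were higher, 3 lower and 3 not called, with a median log2 fold change of 0.42. Of all genes tested, 34.9% were called higher and 32.7% lower, and the counts of this and the next lists stand beside those shares. The highest were *CDC25A*, a phosphatase that activates CDKs, at 1.59, and cyclin A2 (*CCNA2*) at 1.21. The inhibitory kinases *PKMYT1* (0.98) and *WEE1* (0.80) rose too, named here after their values were seen, as were the other activating phosphatases *CDC25B* (-0.02) and *CDC25C* (-0.01), which did not pass. The lowest were *CCNH* (-0.30) and *MNAT1* (-0.26), subunits of the CDK-activating kinase, both called lower, whereas its catalytic subunit *CDK7* was called higher (0.51, named after its value was seen). With *ENSA* (-0.12), an inhibitor of a phosphatase that opposes CDK1, *CCNH* and *MNAT1* made up the 3 called lower. Of these, 1 was left with no filter on low values or without TPC-1 replicate 1. The relative of *ENSA*, *ARPP19* (0.22), and *MASTL* (0.77) of the same list were called higher, both named after their values were seen. *CDC25A* and *CCNA2* are among the cell cycle genes that the study tabulated as changed in these same libraries, so they are not independent evidence of a direction.

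Of 12 tested partners of the aurora kinases, 9 were higher, 1 was lower and 2 were not called, and the median was 0.78. *INCENP*, the scaffold of the Aurora B complex, was highest at 1.14 (9.27 to 20.6 FPKM), then *HMMR*, which binds TPX2 at spindle poles, at 1.09. *AJUBA*, a LIM protein that can activate Aurora A, was lower at -0.47, and *NEDD1*, which recruits gamma-tubulin, was at 0.17 (adjusted p = 0.0751 from limma; 0.0254 without TPC-1 replicate 3). The list holds *BUB1*, which the study also tabulated. Of 11 tested genes of the polo family and of centriole duplication, 9 were higher and 2 lower, with a median of 0.74. Among those higher, *PLK2*, named after its value was seen, was at only 0.10 (adjusted p = 0.0302 from limma). Its call was lost under several alternatives, among them no filter on low values (adjusted p = 0.068) and scaling to library totals (0.245). *STIL* (1.08) and *CEP78* (0.86), both centriolar, were highest, and the centrosomal *KIZ* (-0.68) and *CEP63* (-0.27, adjusted p = 0.0246 from limma) were lowest. The call of *CEP63* was lost under several alternatives, among them no filter on low values (adjusted p = 0.052) and leaving out TPC-1 replicate 1, TPC-1 replicate 2 or *RRM2*-OE-TPC-1 replicate 1 (0.0657, 0.0736 and 0.076).

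Of 13 tested MuvB subunits, E2F and pocket proteins and FOXM1 partners, 9 were higher, 3 lower and 1 not called, with a median of 0.37. *MYBL1* (A-MYB) was highest at 1.76 (4.01 to 13.9 FPKM), then the transcription factor *E2F1* at 0.96, and *MYBL2*, the B-MYB of the MuvB complex, was at 0.95. Those called lower were *E2F5* (-0.77), *RBL2* (-0.69), which encodes the pocket protein p130, and *TFDP2* (-0.68), a partner of E2F proteins, whereas their relatives *E2F4* (0.37), *RBL1* (0.86), which encodes p107, and *TFDP1* (0.63) were called higher. Of the MuvB subunits themselves, *LIN9* (0.30), *LIN52* (0.54) and *LIN54* (0.32) were called higher and *RBBP4* (0.09) was not called. *LIN37* was under the minimum of the test. Without *RRM2*-OE-TPC-1 replicate 1, *LIN52* and *LIN54* lost their calls (adjusted p = 0.0528 and 0.0515 from limma), and 7 genes of the list were higher. *MYBL2*, *TFDP2*, *E2F4*, *RBL1*, *TFDP1* and these MuvB subunits were picked after their values were seen. Of 39 tested genes known as targets of MuvB with B-MYB and FOXM1, other than the 10, 37 were higher and 2 were not called, with a median of 0.73. The highest were *ANLN* (anillin, of the cleavage furrow) at 1.79 and *CDC20* (an activator of the anaphase-promoting complex) at 1.35, and the lowest, neither of them called, the centromeric histone *CENPA* at 0.08 and the spindle protein *NUSAP1* at 0.01 (-0.0478 when scaled to library totals). In this list *CDC20*, *PTTG1*, *TTK* and *BUB1B* are in the table of the study, and without these 4 it was 33 of 35 higher, with a median of 0.71. The remaining genes are not independent evidence either, since the lists were chosen with earlier results of these data known. Of its 34 genes with a promoter in RefSeq, 14 held both TTTGAA and CCAAT within 130 bases of a start, 41.2%, against 1.88% of all genes with one. Targets of MuvB are known to carry these letters, so a higher share comes with the choice of the list and is no test.

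The anaphase-promoting complex, which ends mitosis by marking cyclin B for destruction, had the lowest median of the 6 lists. Of its 17 tested subunits and regulators, 11 were higher, 1 lower and 5 not called, with a median of 0.28, where 34.9% and 32.7% of all genes were higher and lower. None was past a log2 fold change of 1, but *CDC20* (1.35) and the ubiquitin-conjugating enzyme *UBE2C* (0.88) also act with the complex and were counted in the list of FOXM1 targets instead. *FBXO5*, an inhibitor of the complex, was highest at 0.61 and the ubiquitin-conjugating enzyme *UBE2S* next at 0.57. The subunit *ANAPC16* was lowest at -0.35, and *CDC16*, another subunit, was at 0.06 (adjusted p = 0.351 from limma; -0.00239 when scaled to library totals).

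**Figure D5:**
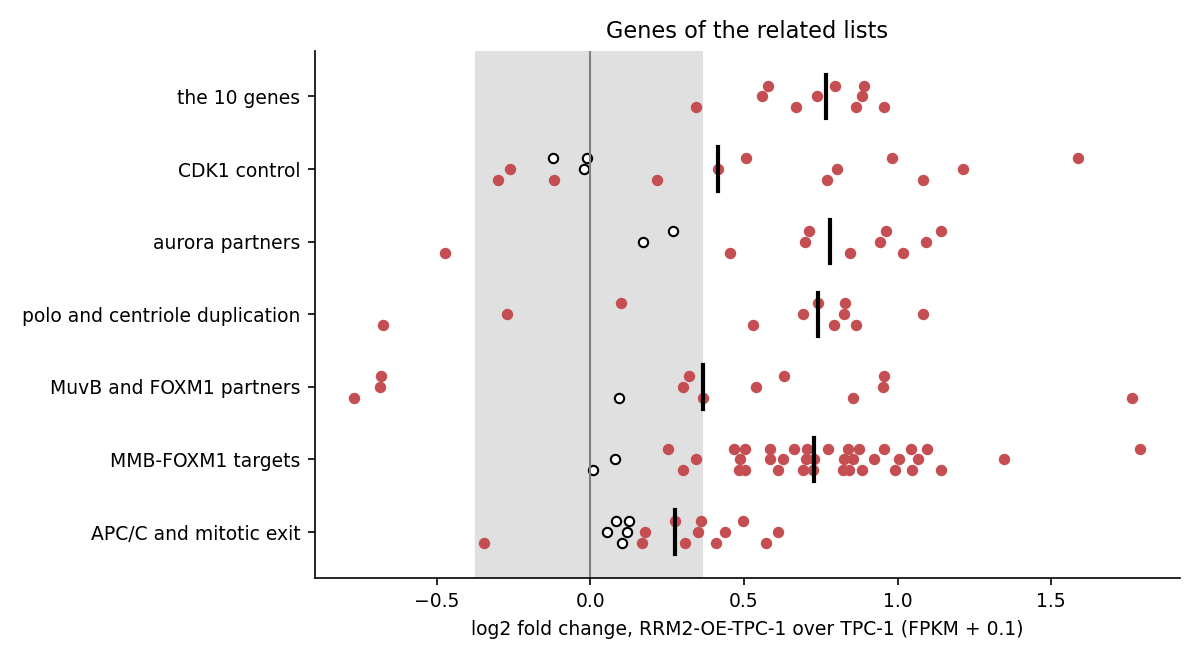
Log2 fold change of FPKM + 0.1, *RRM2*-OE-TPC-1 over TPC-1 (x axis), of each tested gene of 7 lists (rows), filled where the adjusted p was 0.05 or less and open otherwise, with the list's median as a black bar and the interquartile range of all genes in grey. The medians run from 0.28 for the anaphase-promoting complex to 0.78 for the aurora partners.

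Among 10538 other protein-coding genes with a mean of at least 1 FPKM, those nearest to the median profile of the 10 across the 6 libraries were *REXO2*, *BARD1*, *DDX31*, *CDT1* and *GPATCH4*. Their root mean square difference from it was 0.0214 to 0.0329 on the log2 scale, smaller than that of any of the 10 genes themselves (0.0489 to 0.298). *CDT1*, a replication licensing factor, was at 6.81 ± 0.195 FPKM (SD, n = 3) in TPC-1 against 11.5 ± 0.254 (SD, n = 3) with *RRM2* overexpressed. These 5 were chosen for this likeness, so their values are a description.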

How the data were processed

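RNA sequencing libraries of 3 TPC-1 and 3 *RRM2*-OE-TPC-1 samples were analysed. Reads were cleaned with fastp, aligned with HISAT2 2.0.5 and counted with featureCounts 1.5.0, the versions being those of the submitters' processing notes, which also name GRCh38.p14. The authors deposited FPKM, counts divided by gene length and depth, and used DESeq2 1.20.0 for their own contrast. The methods describe poly(A) selection, whereas the labels describe ribosomal RNA removal with RNase R, and which was used cannot be told apart here. Gene positions were those of GENCODE 29. Reads recovered as FPKM times gene length were whole within 0.01 of a read for 100% of values.

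Log2(FPKM + 0.1) was tested with limma 3.58.1 (lmFit, eBayes with trend) in R 4.3.3, with Benjamini-Hochberg adjustment over 13621 genes with at least 0.5 FPKM and 10 reads in 3 libraries. This scale understates changes of low genes. Genes were called at an adjusted p of 0.05, and with a log2 fold change of 1 where stated. The fit was also run on simulated data in which few genes changed, unlike here, so that run says little about scaling or false calls in these data. Python 3.11.15 with pandas 2.3.3 and scipy 1.17.1 was used for ratios and promoters. The 10 genes and the lists, written by hand, were chosen with earlier results of these data known. Some marker genes are not reported here. Named list genes are the 2 highest and 2 lowest of each list unless stated. Alternatives were other filters, pseudocounts and scalings, limma-voom on recovered reads, the replicate number as a block, protein-coding genes only, a test of a change above 1, and each library left out in turn.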

Additional observations from a re-analysis of the deposited data

How the results depend on the processing

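Each of the 10 genes kept its direction and passed the adjusted p of 0.05 under all 15 alternatives run for it; the largest adjusted p was 0.0263 from limma, for *CCNB2* with no filter on low values. Leaving out 1 library at a time, the number past both thresholds was 0 to 1, the 1 being *AURKA* without TPC-1 replicate 3. Scaled to library totals, the median log2 fold change of all genes was -0.05 and 46.1% of called genes were higher, against 51.7%. In the CDK1 control list, 1 gene was called lower with no filter and 1 without TPC-1 replicate 1, in place of 3 (range 1 to 3 over the libraries left out). In the polo and centriole list it was 1 in place of 2 with no filter, with the replicate block, and without TPC-1 replicate 1, TPC-1 replicate 2 or *RRM2*-OE-TPC-1 replicate 1 (range 1 to 2). The log2 difference of the *CCNB1* to *CDK1* ratio turned from -0.07 to 0.0454 without TPC-1 replicate 1, and ranged from -0.14 to 0.0454 over the libraries left out. Genes near 0 that were not called changed sign: *CDC16* (-0.00239) and *NUSAP1* (-0.0478) when scaled to library totals, *NUSAP1* without TPC-1 replicate 3 (-0.0678) or without replicate 2 (-0.01495) or 3 (-0.0558) of *RRM2*-OE-TPC-1, *CDC25C* without replicate 2 of either group (0.0382 and 0.0229), and *CKS2* without *RRM2*-OE-TPC-1 replicate 1 (0.000939). Over the libraries left out their log2 fold changes were -0.0678 to 0.0968 (*NUSAP1*), -0.0437 to 0.0382 (*CDC25C*) and -0.205 to 0.000939 (*CKS2*). The cause was not tested. Over all named and listed genes and alternatives, 1797 values kept their direction and call, 32 lost the call, 8 gained it and 8 changed sign. Same-numbered replicates did not deviate together (correlations -0.0105, -0.0060 and -0.0550 across genes), so the numbers do not pair the samples; with the replicate block 10 of 10 genes passed, *CEP63* and *PLK2* lost their calls (adjusted p = 0.0502 and 0.0787 from limma), *NEDD1* and *BORA* gained them (0.0488 and 0.0499), and 4616 of all genes were called higher in place of 4758. The recovered reads were fitted with limma-voom only, and count models such as DESeq2 were not run on them.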

Other observations

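*PRC1*, which bundles microtubules of the late spindle and is a known target of FOXM1, was at only 0.136 to 0.370 FPKM over the 6 libraries and under the minimum of the test. Exons of *AC068831.7* on the same strand cover 57.6% of its exon bases, and the part of this overlap in its low count was not tested.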
